A study of Mus musculus with 16 samples.

Results

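The expression of 10 genes of the VEGF, neuropilin, angiopoietin, apelin and tip cell systems (Vegfa, Vegfc, Pgf, Nrp1, Nrp2, Flt4, Angpt2, Apln, Aplnr and Esm1) was followed in mouse brain microvascular endothelial cells (mBMEC). The genes were taken by name and no measured value entered the rule, but they were chosen with earlier results of these data known. All 10 were found among the 54193 genes with a summed read count, and 9 of them were among the 14838 genes with enough counts to be tested. Replicates were separate cell cultures at a low passage, and every library is described by its genotype, drug and replicate number. The cultures came from the pooled brains of adult mice of 8 to 10 weeks with the Cdh5 (PAC)-CreERT2 transgene, a tamoxifen-inducible Cre recombinase driven by an endothelial promoter, and floxed Pdcd10 (Ccm3) alleles, PDCD10fl/fl. Every culture, WT included, carried both. KO cells were exposed to 4-hydroxytamoxifen (4-OHT) to delete the gene and WT cells were not, so that an effect of 4-OHT and an effect of the deletion cannot be told apart. Cells were left untreated (3 WT and 3 KO libraries) or received the β-blocker propranolol at 10 µM (P, 2 WT+P and 3 KO+P libraries) or the mTOR inhibitor rapamycin at 100 nM (R, 2 WT+R and 3 KO+R libraries) for 24 h. Poly(A) RNA was sequenced without strand information, with 18830503 to 26203339 estimated counts per library, and levels are given as CPM, the count of a gene relative to the scaled total of its library, or, between genes, as TPM, which is also corrected for transcript length. Libraries with the same replicate number tended to vary together, though WT replicate 3 did so only weakly. Tests are given without and with the replicate number as a block.

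VEGF-A, VEGF-C and placental growth factor (PlGF, the product of Pgf) are secreted ligands of a family of endothelial receptor tyrosine kinases, of which Flt1 binds VEGF-A and PlGF, Kdr is the main signalling receptor of VEGF-A, and Flt4 is the receptor of VEGF-C. Nrp1 and Nrp2 are co-receptors of these ligands and also bind class 3 semaphorins together with plexins, and angiopoietin-2 is stored by endothelial cells and acts on the receptor Tie2 (Tek). Apelin and the endothelial proteoglycan endocan (Esm1) are known markers of the tip cells that lead a growing vessel sprout, whereas the apelin receptor is known from other, non-tip endothelial cells and from veins.

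The deleted gene was checked first. Pdcd10 was measured at 11.5, 31.2 and 47.0 CPM in the libraries labelled WT replicates 1, 2 and 3, at 60.8 and 32.5 CPM in WT+P, at 52.0 and 27.7 CPM in WT+R, at 9.72, 11.0 and 9.73 CPM in KO, at 16.7, 13.9 and 13.1 CPM in KO+P, and at 8.37, 7.83 and 9.53 CPM in KO+R. The library labelled WT replicate 1 thus lay within the range of the KO libraries, against its label, and differences between KO and WT are given also without it. All 10 endothelial markers were expressed, and their sum was 6730 to 14300 CPM. It was 6730 to 10600 CPM in WT+P and 7200 to 10700 CPM in KO+P. These values were below the 11000 to 14300 CPM of WT and the 11300 to 12500 CPM of KO. With rapamycin the sum was 9630 to 10400 CPM in WT+R, also below WT, and 10700 to 11800 CPM in KO+R, which overlapped KO. Because these are bulk libraries, fewer cells of a type and less RNA per cell cannot be told apart. Markers of fibroblasts (5 of 6 tested, Lum at 0), microglia (3 of 6 tested, P2ry12 at 0), astrocytes, neurons and oligodendrocytes (1 of 5 each) were low, with sums of at most 202, 26, 7.54, 28.6 and 2.04 CPM. Mural cell markers reached higher sums, from 71.5 CPM in a KO library to 2490 CPM in a WT+R library, and are given by group with Nrp2 below.

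The 10 genes spanned a wide range of levels. Apln, which encodes apelin, was the most abundant, with a mean of 3430 TPM over the 16 libraries, rank 20 among all genes, and it took 0.436 to 0.882% of all counts of a library. Pgf followed with 2430 TPM (rank 44) and Angpt2 with 1180 TPM (rank 130). Apln exceeded Pgf in 14 and Pgf exceeded Angpt2 in 13 of the 16 libraries, so that these neighbours changed places in a few libraries, whereas Angpt2 exceeded Esm1 in all 16. Esm1 (86.0 TPM), Flt4 (59.8 TPM) and Nrp2 (54.3 TPM) formed an intermediate group, in which Esm1 exceeded Flt4 in only 9 and Flt4 exceeded Nrp2 in 13 libraries. Nrp1 (15.7 TPM), Vegfa (10.5 TPM) and Vegfc (4.73 TPM) were lower, and each exceeded the next in 13 libraries. Among the 5 ligands of the VEGF family, Vegfb included, Pgf made up 92.3 to 97.3% of the summed TPM (median 95.2%). The receptors Kdr and Flt1 had means of 75.8 and 54.9 TPM, close to Flt4.

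**Figure D1:**
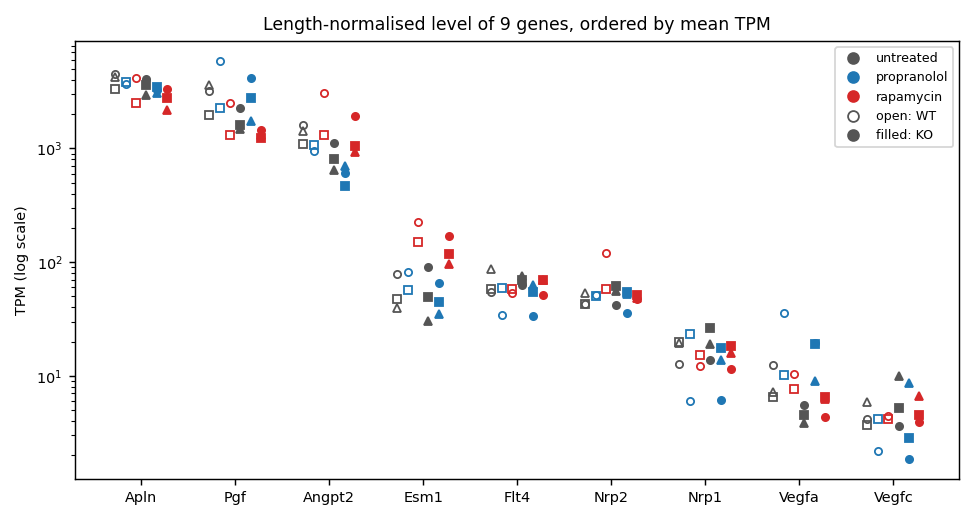
Level of 9 genes in the 16 libraries (TPM, log axis), ordered by their mean; open symbols are WT and filled symbols KO libraries, colours give the drug and shapes the replicate number. Apln, Pgf and Angpt2 lie at 465 TPM or above in every library, and Vegfc at 1.86 to 9.94 TPM; Aplnr, at 0 to 0.132 TPM, is not drawn.

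Aplnr, the apelin receptor, was nearly absent beside its abundant ligand. It had 0 to 6 counts per library, at most 0.31 CPM, and did not pass the filter on low counts. The other known ligand of this receptor, Apela, was not tested either because of low counts. Prox1, the defining transcription factor of lymphatic endothelium, in which Flt4 and Vegfc are known to act, had 0 to 7 counts per library, and Pdpn 6 to 57. Lyve1, of lymphatic vessels and of some macrophages, had 67 to 603 counts. It was highest in the replicate 1 libraries with propranolol, at 26.7 CPM in WT+P and 25.1 CPM in KO+P, against 2.75 to 5.12 CPM in untreated cells (1.56 in KO+P vs KO and 2.29 in WT+P vs WT, adjusted p = 0.365 and 0.406).

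The 250 bases upstream of the start of the main transcript are shown for Esm1, Vegfa and Pgf, 3 of the genes that differed between rapamycin-treated and propranolol-treated KO cells in the fit with the block, since their promoters could share letters. Sequences were read from GRCm39 by the GENCODE start of the most abundant transcript and run 5′ to 3′ on the strand of the gene; capitals mark a match to a searched motif. Esm1 lies on the plus strand of chromosome 13 (113346021 to 113354632), and the other 2 genes on the minus strand, Vegfa on chromosome 17 (46327919 to 46343309) and Pgf on chromosome 12 (85213409 to 85224564).
Esm1, chr13:113345771-113346020: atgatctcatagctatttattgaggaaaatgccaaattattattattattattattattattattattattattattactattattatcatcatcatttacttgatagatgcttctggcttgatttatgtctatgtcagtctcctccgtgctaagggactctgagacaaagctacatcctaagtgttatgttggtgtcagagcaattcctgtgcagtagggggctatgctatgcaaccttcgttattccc
Vegfa, chr17:46343310-46343559: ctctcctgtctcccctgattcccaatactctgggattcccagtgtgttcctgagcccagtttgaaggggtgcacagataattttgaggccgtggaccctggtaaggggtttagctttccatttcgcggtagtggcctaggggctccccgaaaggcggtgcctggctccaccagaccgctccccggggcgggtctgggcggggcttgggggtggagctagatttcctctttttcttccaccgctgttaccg
Pgf, chr12:85224565-85224814: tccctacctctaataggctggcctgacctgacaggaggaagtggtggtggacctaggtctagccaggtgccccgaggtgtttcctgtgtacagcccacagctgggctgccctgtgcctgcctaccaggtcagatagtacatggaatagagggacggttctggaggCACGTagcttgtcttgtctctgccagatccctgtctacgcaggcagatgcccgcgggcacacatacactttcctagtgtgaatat
The Esm1 sequence was AT-rich, with 33.6% G and C and 2 CpG, compared with 59.6% and 11 in Vegfa, 56.8% and 6 in Pgf, and medians of 56% and 11 over 14837 promoters. Both strands were searched for the core of the hypoxia response element (ACGTG, in 19.8% of the promoters), a forkhead motif (GTAAACA, 2.47%), the AP-1 motif (TGANTCA, 4.88%) and the cyclic AMP response element (TGACGTCA, 1.71%), whose letters do not contain one another. Of these 3 genes, only Pgf held a match, 1 ACGTG on the opposite strand 85 bases before the start, and of Vegfc, Nrp1, Nrp2, Flt4 and Apln only Nrp1 held one, ACGTG 198 bases before its start. A match is only a description of the letters in this window.

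In the comparison of KO with WT cells, which addresses the loss of Ccm3, none of the 9 tested genes was called by edgeR (adjusted p under 0.05 and fold change above 1.5), where 0.00674% of all genes were called. Pdcd10, the deleted gene, was itself not called (log2 difference −1.56 ± 0.4, adjusted p = 0.42, and 0.119 with the block). The test thus missed a known deletion, and genes not called here are not shown to be unchanged. With the block 0 of the 9 were called and 0.182% of all genes, and DESeq2 called 0 of the 9 and 0.499% of all genes. An unadjusted p under 0.05 without the block was found for 0 of the 9 and for 6.07% of all genes. The ligands gave the largest values. Vegfa was measured at 19.6, 9.11 and 11.6 CPM in the libraries labelled WT and at 9.68, 6.79 and 5.73 CPM in KO. The KO libraries were the lower ones within each replicate number, but the groups overlapped, and the log2 difference was −0.86 ± 0.48 (SE, adjusted p = 0.934), −0.84 ± 0.36 with the block (adjusted p = 0.335). Pgf was at 2910, 1690 and 2930 CPM in WT and at 2060, 1360 and 1300 CPM in KO, a log2 difference of −0.68 ± 0.42 (adjusted p = 0.973). Angpt2 was at 3250, 2060 and 2640 CPM in WT and at 2300, 1530 and 1260 CPM in KO, a log2 difference of −0.65 ± 0.39 (adjusted p = 0.962).

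Vegfa, Pgf and Angpt2 were therefore lower in KO in 3 of 3 replicate numbers each, where 22.2% of all genes were, with ratios of KO to WT between 0.443 and 0.8. Without the library labelled WT replicate 1, the log2 differences without the block were −0.50 for Vegfa, −0.57 for Pgf and −0.48 for Angpt2 (adjusted p = 1 for each), and with the block −0.80, −0.86 and −0.73. Called were 0 of the 9 genes in both fits, against 0% of all genes without and 0.445% with the block. Esm1 (log2 difference 0.06 ± 0.47), Apln (−0.15 ± 0.25), Flt4 (0.11 ± 0.23), Nrp1 (0.21 ± 0.41) and Nrp2 (0.23 ± 0.23) had smaller values. Vegfc, at 6.30, 5.27 and 7.05 CPM in WT and 5.54, 6.98 and 14.0 CPM in KO, had a difference of 0.51 ± 0.54, for which KO replicate 3 stood highest. For 0 of the 9 genes did the KO and WT libraries not overlap, against 13.2% of all genes. Apln was at 8980, 6290 and 7540 CPM in WT and at 8170, 6640 and 5730 CPM in KO, with the replicate 1 libraries highest in both. With the block, the 95% interval of the Apln difference ran from −0.53 to 0.22 and that of Esm1 from −0.28 to 0.26.

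**Figure D2:**
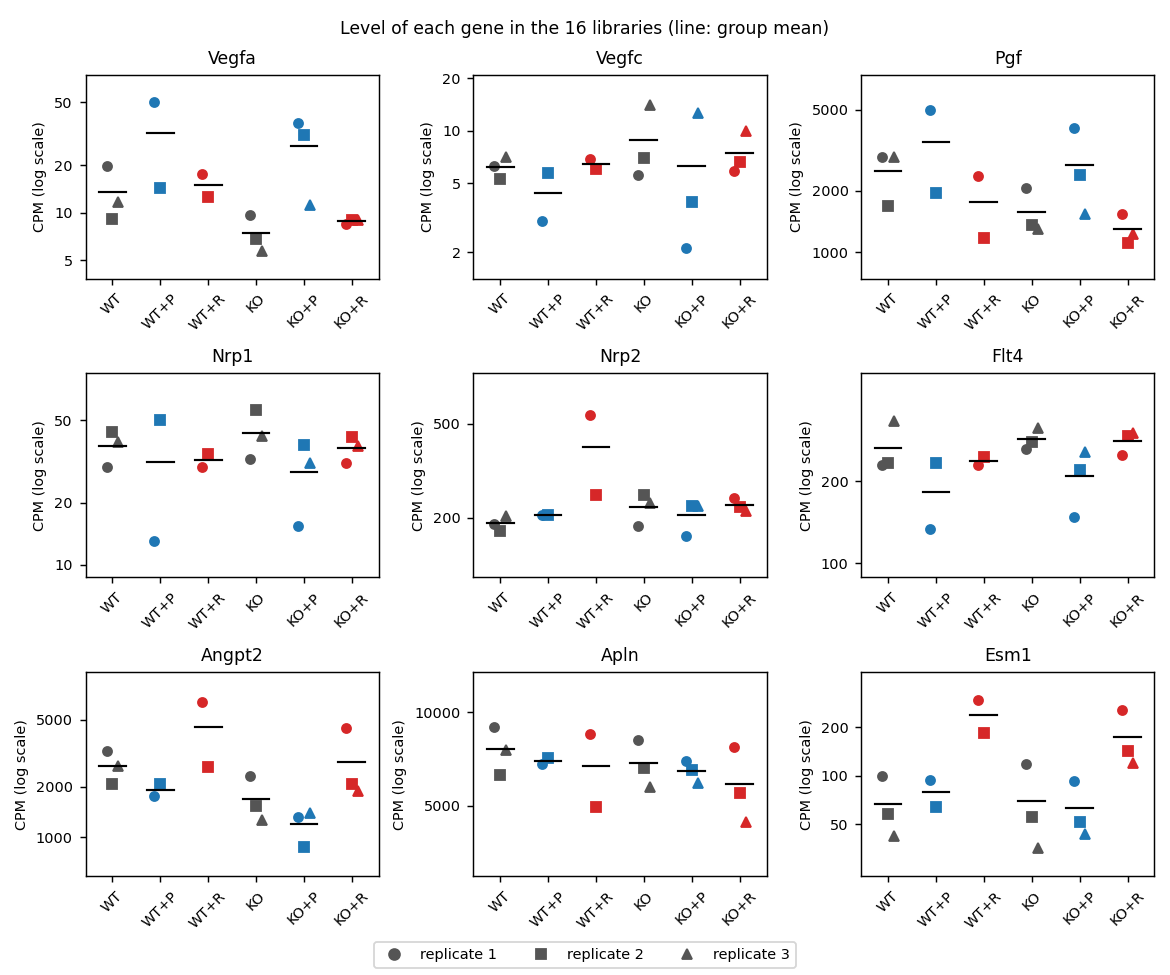
CPM (log axis) of the 9 tested genes in each library, by group; shapes are replicate numbers, bars are group means, grey is untreated, blue propranolol and red rapamycin. Esm1 is higher in each of the 5 rapamycin libraries (120 to 295 CPM) than in each of the other 11 libraries (35.5 to 118 CPM), and Vegfa reaches 49.8 CPM with propranolol.

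Rapamycin was accompanied by higher Esm1 in both genotypes. Esm1, whose product endocan is secreted by endothelial cells, was measured at 118, 55.1 and 35.5 CPM in KO and at 257, 143 and 120 CPM in KO+R. All KO+R libraries were above all KO libraries, as for 10.9% of all genes. The log2 difference was 1.32 ± 0.48 (2.5-fold), with an adjusted p of 0.244 without the block, where 0 of the 9 genes and 1.51% of all genes were called and Esm1 alone of the 9 was among the 12.5% of genes with an unadjusted p under 0.05. DESeq2 called 0 of the 9 and 3.24% of all genes. With the block the difference was 1.41 ± 0.12 (95% interval 1.13 to 1.68) and Esm1 was called (adjusted p = 0.0002), the only one of the 9, as were 4.98% of all genes, 1.94% higher. Within replicate numbers 1, 2 and 3 the ratios of KO+R to KO were 2.18, 2.6 and 3.38.

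In WT cells Esm1 was at 100, 57.7 and 42.2 CPM untreated and at 295 and 184 CPM with rapamycin. All WT+R libraries were above all WT libraries for Esm1 and Nrp2, 2 of the 9 genes, as for 14% of all genes, and the Esm1 ratios within replicate numbers were 2.94 and 3.19. The log2 difference was 1.84 ± 0.52 (adjusted p = 0.104) without the block, where 0 of the 9 genes and 1.4% of all genes were called, and 1.62 ± 0.14 with it (adjusted p = 0.000301), where 2 of the 9 (Esm1 and Nrp2, both higher) and 4.56% of all genes (2.18% higher) were called. The same 2 genes had an unadjusted p under 0.05 without the block, as had 12.6% of all genes, and DESeq2 without the block called them with 3.82% of all genes. Without the library labelled WT replicate 1, Esm1 had 2.26 (adjusted p = 0.107), 1.62 with the block (adjusted p = 0.00259). The difference of the rapamycin effect between genotypes was −0.52 ± 0.70 without and −0.21 ± 0.19 with the block (adjusted p = 1 for both; 95% interval with the block −0.62 to 0.20), in a test in which 0 of all genes were called. With the block, Esm1 stayed called when any 1 library was left out, in 6 of 6 fits of KO+R vs KO (log2 1.26 to 1.58) and in 5 of 5 fits of WT+R vs WT (1.54 to 1.70).

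Propranolol left Esm1 close to its untreated level. It was at 93.2, 51.4 and 43.6 CPM in KO+P and at 94.6 and 64.2 CPM in WT+P, within the range of the untreated libraries of each genotype. The difference with the block was −0.06 ± 0.12 in KO+P vs KO (95% interval −0.33 to 0.21, adjusted p = 0.779) and 0.04 ± 0.14 in WT+P vs WT (−0.27 to 0.35, adjusted p = 0.899). The ratios of KO+R to KO+P were 2.76, 2.79 and 2.75 in replicate numbers 1, 2 and 3, and those of WT+R to WT+P were 3.12 and 2.87. These ratios were closer to each other than the levels themselves, which ran from 120 to 257 CPM in KO+R.

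Nrp2, the neuropilin known for VEGF-C and semaphorin 3F binding, was higher with rapamycin in WT cells. It was measured at 187, 176 and 204 CPM in WT and at 546 and 249 CPM in WT+R. Both treated libraries were above all untreated ones, and replicate 1 stood far above replicate 2. The log2 difference was 1.07 ± 0.25 (2.1-fold, adjusted p = 0.054) without the block and 1.09 ± 0.27 with it (adjusted p = 0.0357, called). Without WT+R replicate 1 it was 0.40 (adjusted p = 0.668), 0.36 with the block (adjusted p = 0.524), and without WT+R replicate 2 it was 1.53 (adjusted p = 0.015), so that its size rested on replicate 1. With the block, Nrp2 was called in 1 of 5 fits that left out a library.

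In KO cells Nrp2 was at 184, 250 and 231 CPM untreated and at 242, 221 and 213 CPM with rapamycin, and the groups overlapped. The log2 difference was 0.02 ± 0.23 (95% interval −0.47 to 0.51, adjusted p = 0.987). The difference between genotypes in the rapamycin effect was −1.05 ± 0.34 (adjusted p = 1, with Nrp2 the only one of the 9 among the 0.762% of genes with an unadjusted p under 0.05), which did not pass the test and ranged from −1.49 to −0.36 when single libraries were left out. With propranolol Nrp2 was at 205 CPM in both WT+P libraries, just above the WT libraries, the only one of the 9 genes with all WT+P libraries above all WT libraries, as for 10.8% of all genes (0.12 ± 0.25, adjusted p = 0.917). Nrp2 was divided over 3 coding transcripts, with median shares of its TPM of 38.3% for Nrp2-205, 33.9% for Nrp2-202 and 22.4% for Nrp2-204; the mean share of Nrp2-205 was 36.3% in WT and 45.7% in WT+R. Of 10 mural cell markers 8 were tested, and their sum was 96.6 to 839 CPM in WT and 1460 to 2490 CPM in WT+R, mostly Tagln and Acta2 (log2 difference of Acta2 2.74, adjusted p = 0.0469), while the pericyte channel genes Kcnj8 and Abcc9 had at most 5 and 12 counts in any library. In KO the mural sum was 71.5 to 205 CPM and in KO+R 271 to 452 CPM. With propranolol it was 407 to 1390 CPM in WT+P and 115 to 434 CPM in KO+P. The part of the mural markers, and of the lower endothelial sum in WT+R, in the Esm1 and Nrp2 results was not tested.

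Angpt2, the context-dependent ligand of Tie2, was at 2300, 1530 and 1260 CPM in KO and at 4450, 2070 and 1870 CPM in KO+R. Each KO+R library was above the KO library of the same number, with ratios of 1.94, 1.36 and 1.49, as for 25.1% of all genes, but the groups overlapped. The difference was 0.72 ± 0.39 (adjusted p = 0.488), 0.67 ± 0.28 with the block (adjusted p = 0.175). In WT+R it was at 6400 and 2620 CPM, with ratios to WT of 1.97 and 1.27 (33.5% of all genes were higher in both pairs) and a log2 difference of 0.77 ± 0.43 (adjusted p = 0.517). Of the exonic bases of Angpt2, 70.7% overlap Mcph1 on the opposite strand, and reads of the overlap cannot be assigned by strand; the counts given to Mcph1 were 3.09 to 4.46% of those of Angpt2.

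The remaining genes were not called with rapamycin over untreated cells, without or with the block. Apln was lower in the treated library of each of the 5 pairs with the same number, by 0.08 to 0.37 on the log2 scale, with fitted differences of −0.22 ± 0.25 in KO and −0.17 ± 0.28 in WT (adjusted p = 0.816 and 0.883). Pgf was likewise lower in each pair, by 0.09 to 0.53, with fitted differences of −0.29 ± 0.42 and −0.51 ± 0.47 (adjusted p = 0.863 and 0.749). With the block the Pgf differences were −0.26 ± 0.25 in KO and −0.67 ± 0.29 in WT (adjusted p = 0.599 and 0.226). For comparison, 31.2% of all genes were lower in all 3 KO pairs and 37.7% in both WT pairs. Vegfa, Vegfc, Nrp1 and Flt4 had log2 differences between −0.25 and 0.25 in both genotypes, with the SE between 0.23 and 0.60, and were not called.

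**Figure D3:**
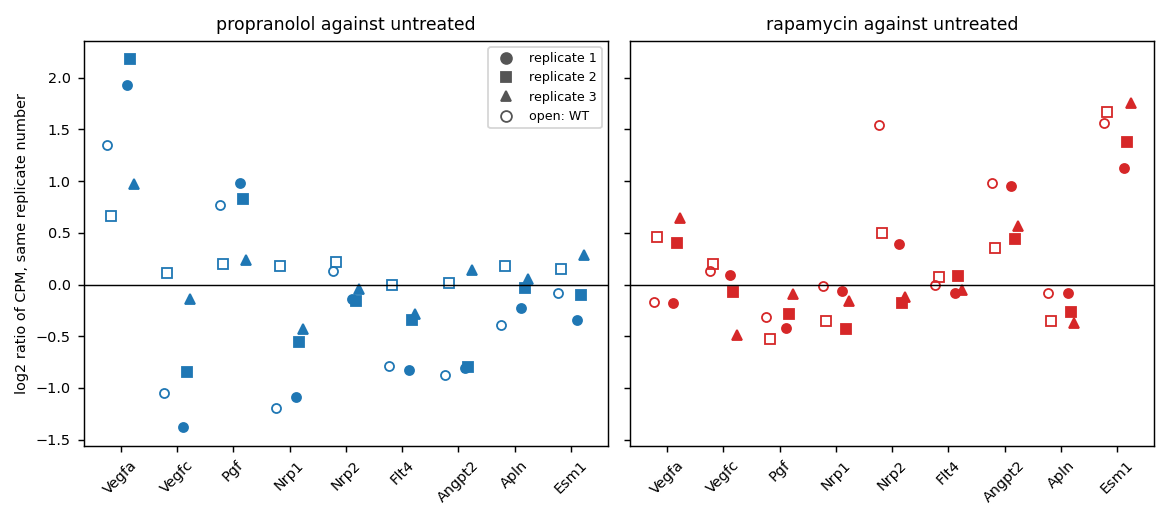
log2 ratio of CPM between a treated library and the untreated library of the same genotype and replicate number, for 9 genes; open symbols are WT, filled symbols KO, and shapes give the replicate number. With rapamycin, Esm1 lies at 1.13 to 1.76 in all 5 pairs and Angpt2 above 0 in all 5; with propranolol, Vegfa lies above 0 in all 5.

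Propranolol was accompanied by higher Vegfa values. Vegfa, the main ligand of Kdr, was at 9.68, 6.79 and 5.73 CPM in KO and at 36.8, 30.8 and 11.2 CPM in KO+P. All treated libraries were above all untreated ones; with Flt4, which lay below, 2 of the 9 genes did not overlap, against 18.7% of all genes. Replicate 3 had the smallest ratio, with values of 3.8, 4.53 and 1.96. The log2 difference of 1.83 ± 0.48 (3.55-fold; 95% interval 0.78 to 2.88) had an adjusted p of 0.251 without the block and of 0.0619 with it (1.78 ± 0.37), so that it was not called in either fit. Here 0 of the 9 genes and 0.00674% of all genes were called without the block, and 0 of the 9 and 0.142% with it; Vegfa alone had an unadjusted p under 0.05 without the block, as had 12.6% of all genes. DESeq2 called it, with 1.19% of all genes, and so did edgeR without KO+P replicate 3 (log2 2.19, adjusted p = 0.0328), a fit that called 2.24% of all genes.

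In WT cells Vegfa was at 19.6, 9.11 and 11.6 CPM untreated and at 49.8 and 14.4 CPM with propranolol, and the groups overlapped. The log2 difference was 1.26 ± 0.52 (adjusted p = 0.475), and it was 0.10 without WT+P replicate 1, so that its size came from that library. Called here were 0 of the 9 genes and 0.00674% of all genes, and with the block 0 of the 9 and 0.0809% of all genes. DESeq2 called 0 of the 9 and 0.882% of all genes. An unadjusted p under 0.05 without the block was found for 1 of the 9, Vegfa, and for 9.87% of all genes. The propranolol effect on Vegfa differed between KO and WT by 0.57 ± 0.71 (adjusted p = 1).

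Several other genes also had different values with propranolol, but edgeR called none of them in the fits of all libraries. Pgf was at 4060, 2400 and 1540 CPM in KO+P and at 4950 and 1950 CPM in WT+P, above its untreated counterpart in all 5 pairs with ratios of 1.15 to 1.97, as was Vegfa; 24.8% of all genes were higher in all 3 KO pairs and 30.6% in both WT pairs. The fitted Pgf difference in KO was 0.76 ± 0.42 (adjusted p = 0.458). Flt4, the VEGF-C receptor, was at 263, 279 and 313 CPM in KO and at 148, 220 and 256 CPM in KO+P, without overlap, with a difference of −0.45 ± 0.23 (adjusted p = 0.422). Nrp1 was at 32.6, 56.4 and 42.0 CPM in KO and at 15.4, 38.2 and 31.1 CPM in KO+P (−0.63 ± 0.41, adjusted p = 0.538). Replicate 1 was the lowest library of both genes with propranolol, in KO+P and also in WT+P, where it held 133 CPM of Flt4 and 13.0 CPM of Nrp1 against 233 and 50.0 CPM in replicate 2. These low values went with the lower sum of endothelial markers under propranolol given above, and its part in them was not tested. Of these markers, which include Kdr, Tek and Tie1, 10 of 10 were lower in both genotypes and 0 were called. Their median log2 differences were −0.5 in KO and −0.67 in WT, against −0.01 and 0 for all genes. Vegfc was at 2.12, 3.88 and 12.7 CPM in KO+P (−0.51 ± 0.54) and Apln changed by −0.08 ± 0.25, both not called. With the block, leaving out KO+P replicate 3 gave 3 called genes in KO+P vs KO (Vegfa, Pgf and Vegfc), when 10.7% of all genes were called, and leaving out WT+P replicate 2 gave 3 in WT+P vs WT (Vegfa, Flt4 and Nrp1), when 8.62% of all genes were called.

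Both drugs were also set against each other, a comparison that shares its libraries with those above. In KO+R vs KO+P, 0 of the 9 genes were called without the block, where 4.08% of all genes were, and 4 of the 9 (Vegfa, Pgf, Angpt2 and Esm1) had an unadjusted p under 0.05, as had 21.1% of all genes. With the block these 4 were called, 2 higher and 2 lower, against 9.62% of all genes, 4% higher and 5.62% lower. DESeq2 without the block called 3 of them, all but Pgf, with 7.72% of all genes. Vegfa was at 36.8, 30.8 and 11.2 CPM with propranolol and at 8.52, 8.98 and 8.95 CPM with rapamycin, without overlap, and the log2 difference with the block was −1.45 ± 0.37 (adjusted p = 0.0241; −1.58 ± 0.48 and 0.0805 without it). Pgf was at 4060, 2400 and 1540 CPM against 1540, 1110 and 1220 CPM, and its difference with the block was −0.98 ± 0.25 (adjusted p = 0.025; 0.173 without it). The 2 ligands of the VEGF family were thus lower with rapamycin than with propranolol in each of the 3 replicate numbers, as were 29% of all genes, and by least in replicate 3.

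Angpt2 and Esm1 differed in the opposite direction. Angpt2 was at 1310, 878 and 1390 CPM in KO+P and at 4450, 2070 and 1870 CPM in KO+R, without overlap, with a difference of 1.15 ± 0.29 with the block (adjusted p = 0.0231; 1.23 ± 0.39 and 0.0937 without it). Esm1 had 1.47 ± 0.13 with the block (adjusted p = 0.000176; 0.0986 without it). The groups of Angpt2, Esm1 and Vegfa did not overlap, 3 of the 9 genes, against 25.5% of all genes. When single libraries were left out of the fit with the block, Esm1 was called in 6 of 6 fits, Vegfa and Angpt2 in 2 of 6 (without KO+P or KO+R replicate 3) and Pgf in 1 of 6 (without KO+P replicate 3).

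In WT+R vs WT+P the 4 genes had the same signs as in KO, with 2 libraries a group. The log2 differences without the block were −1.10 ± 0.58 for Vegfa, −0.97 ± 0.51 for Pgf, 1.23 ± 0.48 for Angpt2 and 1.59 ± 0.59 for Esm1, with adjusted p of 0.399, 0.401, 0.25 and 0.218. The Angpt2 value rested on WT+R replicate 1, since it was 0.45 without that library and 1.74 without WT+R replicate 2. Here 0 of the 9 genes were called against 1.31% of all genes; 3 of the 9 (Nrp2, Angpt2 and Esm1) had an unadjusted p under 0.05, as had 15.1% of all genes, and DESeq2 called 1, Nrp2, with 4.37% of all genes. With the block only Esm1 was called (1.58 ± 0.15, adjusted p = 0.000711), against 4.93% of all genes, 2.04% higher. All WT+R libraries were above all WT+P libraries for Vegfc, Nrp2, Angpt2 and Esm1, 4 of the 9 genes, and with groups of 2 this held for 17.5% of all genes.

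**Figure D4:**
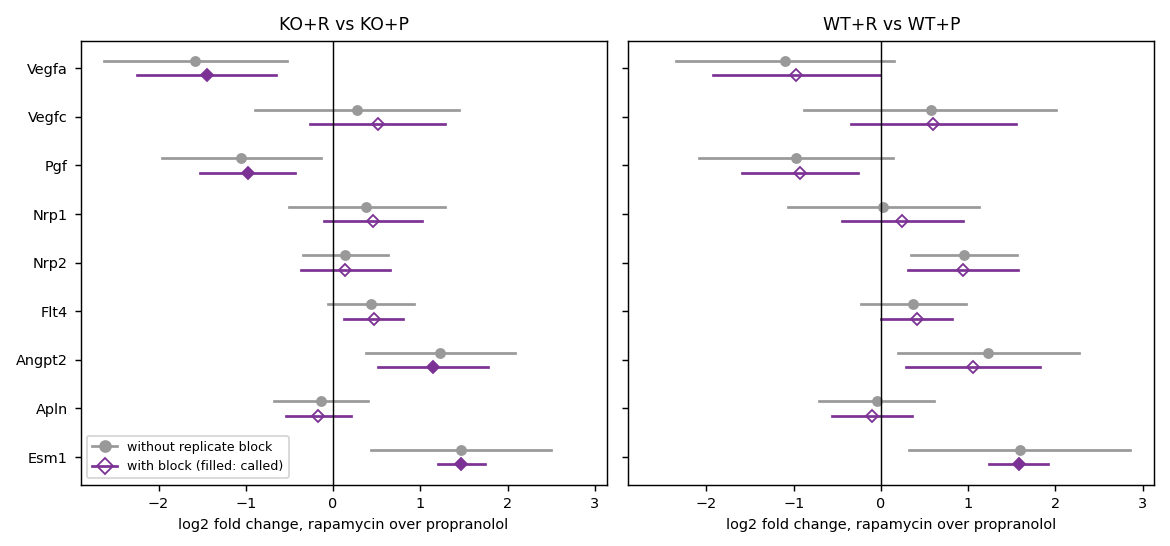
log2 fold change of rapamycin over propranolol for 9 genes in KO and WT cells, with 95% intervals; grey circles are the fit without the replicate block and purple diamonds the fit with it, filled where called. In KO cells Vegfa and Pgf lie below 0 and Angpt2 and Esm1 above 0 with the block; in WT cells Esm1 alone is called.

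Between genotypes under the same drug none of the 9 genes was called. Pdcd10 was not called by edgeR without the block either (adjusted p = 0.481 in KO+P vs WT+P and 0.194 in KO+R vs WT+R). In KO+P vs WT+P, where 0 of all genes were called without the block and 0.0876% with it, 0 of the 9 genes were called in both fits. DESeq2 called 0 of the 9 and 0.43% of all genes, and 0 of the 9 had an unadjusted p under 0.05, as had 6.19% of all genes. Angpt2 was lower in all KO+P libraries than in both WT+P libraries (1760 and 2080 CPM), a difference of −0.69 ± 0.43 (adjusted p = 0.843), and 8.77% of all genes were lower without overlap. In KO+R vs WT+R, 0 of the 9 genes were called against 0 of all genes without the block and 0.0944% with it. DESeq2 called 0 of the 9 and 0.502% of all genes. Only Nrp2 of the 9 had an unadjusted p under 0.05, as had 5.72% of all genes (−0.82 ± 0.25, adjusted p = 0.541). Its difference was −0.14 without WT+R replicate 1. Vegfa and Nrp2 were lower and Flt4 higher in all KO+R than in both WT+R libraries, 3 of the 9 genes, against 19.2% of all genes.

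Other genes of the pathway also differed between the drugs. Of 7 VEGF-induced genes, which are immediate response genes of endothelial cells to VEGF but also of other stimuli, 6 were called in KO+R vs KO+P without the block, all lower, as were 2.51% of all genes, and all 7 had negative values. The median log2 difference of the list was −2.13 against −0.02 for all genes. The called genes were Rcan1, an inhibitor of calcineurin (−2.82, adjusted p = 0.00419), the nuclear receptors Nr4a1 (−2.18, 0.0288) and Nr4a2 (−2.13, 0.0177), the transcription factor Egr3 (−2.81, 0.0485), the phosphatase Dusp5 (−1.30, 0.04) and the signalling inhibitor Spry4 (−1.76, 0.00708); Spry2 was at −0.39 (0.318). Rcan1 was measured at 221, 345 and 205 CPM in KO, at 1110, 928 and 467 CPM in KO+P and at 83.4, 163 and 108 CPM in KO+R, so that all KO+P libraries were above and all KO+R libraries below all KO libraries. All 7 had positive values with propranolol in both genotypes (median 1.70 in KO and 2.28 in WT, against −0.01 and 0 for all genes). Of them 0 were called without the block, and 6 and 7 had an unadjusted p under 0.05, as had 12.6% and 9.87% of all genes. With rapamycin over untreated cells, 5 of the 7 had negative values in each genotype, with smaller medians of −0.41 in KO and −0.18 in WT, against −0.02 and −0.01 for all genes. Here 0 were called without the block, where 1.51% (KO) and 1.4% (WT) of all genes were. With the block 1 was called in KO, lower, as were 3.04% of all genes. When single libraries were left out of KO+R vs KO+P, the adjusted p of Rcan1 and Spry4 stayed under 0.05 in 6 of 6 fits, that of Nr4a2 in 2, and those of Nr4a1, Egr3 and Dusp5 in 1 each. In WT+R vs WT+P, Rcan1 (−3.35, 0.0132), Nr4a1 (−3.03, 0.0424) and Spry4 (−2.06, 0.0184) were called, where 1.31% of all genes were. Each of these calls held in 1 of 4 fits that left out a library, and without WT+P replicate 1 the Nr4a1 difference was −1.93.

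Among the receptors, Kdr was at 373, 276 and 384 CPM in KO, 59.2, 83.4 and 300 CPM in KO+P and 463, 485 and 542 CPM in KO+R. It was higher with rapamycin than with propranolol by 1.75 ± 0.55 (adjusted p = 0.0866), 2.00 with the block (adjusted p = 0.0204), and Flt1 by 0.72 with the block (adjusted p = 0.0159). Neither receptor was called without the block, and with it 9.62% of all genes were called in this comparison. Of the 12 semaphorin and plexin genes, 1 was called with rapamycin in each genotype, where 1.51% (KO) and 1.4% (WT) of all genes were. This was Plxnd1, the receptor of semaphorin 3E, which was lower (−0.82, adjusted p = 0.0246 in KO, and −1.15, 0.0118 in WT). Its adjusted p stayed under 0.05 in 0 of 6 fits without a library in KO and in 3 of 5 in WT (with the block in 6 of 6 and 5 of 5). Plxna4 was higher with rapamycin than with propranolol in KO (2.36, 0.0072, in 6 of 6 fits without a library) and WT cells (2.27, 0.0426, in 1 of 4). The 4 tested angiopoietin and Tie genes, Tek, Tie1, Ptprb and Foxo1, were not called in any comparison without the block, and Angpt1 and Angpt4 were too low to test, so that Angpt2 was the only angiopoietin measured.

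Of 11 other tip cell genes, 2 were called in KO+R vs KO, where 1.51% of all genes were. They were Igfbp3, an IGF binding protein, lower (−3.03, adjusted p = 0.0444) and Pdgfb, the pericyte-recruiting growth factor, higher (0.61, 0.0498). Without single libraries the first held in 1 and the second in 0 of 6 fits, and both in 6 of 6 with the block. In WT+R vs WT, where 1.4% of all genes were called, 2 were called lower, the Notch ligand Dll4 (−2.04, 0.0183) and Igfbp3 (−3.70, 0.0469), in 2 and 1 of 5 such fits. Of the 11 genes 8 had negative values in each genotype, with medians of −0.53 in KO and −0.76 in WT against −0.02 and −0.01 for all genes, and 6 and 8 had an unadjusted p under 0.05, as had 12.5% and 12.6% of all genes. With the block 4 were called lower in each genotype, as were 3.04% (KO) and 2.39% (WT) of all genes. In KO 1 was called higher, as were 1.94% of all genes. Esm1, which was higher, had the opposite sign to most of this list, Dll4 was at 438, 400 and 332 CPM in KO and 211, 175 and 174 CPM in KO+R, and Apln was at 8170, 6640 and 5730 CPM in KO and 7710, 5510 and 4450 CPM in KO+R. In KO+R vs KO+P, where 4.08% of all genes were called, Pdgfb (0.69, 0.0174) and the netrin receptor Unc5b (0.66, 0.0384) were higher. So was Hey1 (2.50, 0.0241), a Notch target, as 1 of 8 stalk cell and Notch genes. Of these 3, Pdgfb held in 3 and Unc5b and Hey1 in 1 of 6 fits without a library. None of the 8 hypoxia sensing genes and none of the 3 tested other ligands and processing genes was called in any pairwise comparison without the block.

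**Figure D5:**
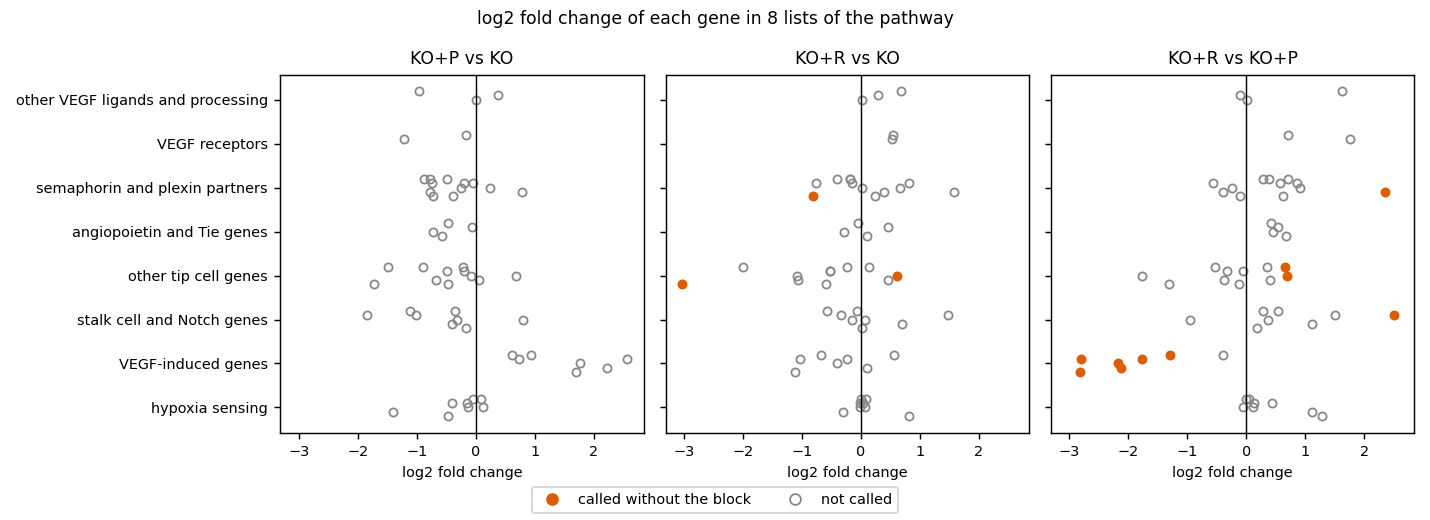
log2 fold change of each tested gene of 8 pathway lists (rows) in KO cells for propranolol over untreated, rapamycin over untreated and rapamycin over propranolol, without the replicate block; filled orange points are called genes. VEGF-induced genes lie at or above 0.62 with propranolol over untreated cells and 6 of 7 are called lower with rapamycin than with propranolol, while hypoxia sensing genes have no called point.

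The genes most like each of the 5 genes called with the block were taken by the correlation of log2 CPM over the 16 libraries among 12410 genes, which describes the libraries' shared variation only. They were Echdc3 (r = 0.959), Sms (0.946) and Clk1 (0.931) for Esm1, and Cnnm4 (0.831), Efcab14 (0.82) and Prdm2 (0.812) for Nrp2. For Vegfa they were Nfil3 (0.931), Eif3c (0.93) and Eif4ebp1 (0.929), and for Pgf Tdg (0.959), Fbxl12 (0.957) and Gys1 (0.952). Tnip1 (0.979), Mcph1 (0.978) and Fam32a (0.963) were nearest to Angpt2, of which Mcph1 is the gene that overlaps it.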

How the data were processed

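RNA-seq of 16 mBMEC libraries was analysed from 1 file per library. The authors deposited, in the format of Salmon, expected counts, TPM and effective lengths for each of 140789 transcripts. The expected counts were not normalised between libraries, and the deposited TPM values are scaled to transcript length and library. The submitters' processing notes list Salmon 1.5.2, Trim Galore 0.6.7, HTSeq 0.13.5 and DESeq2 1.34.0 with GRCm39, and the methods of the study describe STAR, HTSeq and DESeq2; the transcript index is not given in the sources used here. Expected counts were summed over the genes of GENCODE vM39 (139544 transcripts named, the others holding 0.395 to 0.566% of counts were left out) and rounded; 0 columns were left unused.

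Genes were filtered with filterByExpr, scaled with TMM (factors 0.934 to 1.041) and tested with edgeR 4.0.16 (glmQLFTest, Benjamini-Hochberg over 14838 genes, R 4.3.3) in 1 fit of 6 groups with 10 residual degrees of freedom, 8 with the block. Genes were called at an adjusted p under 0.05 and a fold change above 1.5. SE and 95% intervals come from this fit. The biological coefficient of variation was 32.3%, 19% with the block, so that spread between libraries and not depth set the precision of genes with many counts. Depth also limited genes with few counts in some libraries, such as Aplnr and Egr3 (3 to 274 counts). Libraries with the same number deviated together from their group means, with r of 0.19 to 0.69 in the 22 same-numbered pairs of the groups compared. Over all 36 same-numbered pairs the median was 0.52. WT replicate 3 went only weakly with replicate 3 of KO (0.19), KO+R (0.15) and KO+P (0.03). The median over 70 pairs with different numbers was −0.23, but deviations within a group cancel out, which by itself makes such values negative. The numbers were taken as pairs on the same-numbered values. This pairing comes from the values, since the labels and the methods do not state it for these libraries. The script was tested on simulated data in which the replicate number had no effect, so that what the block adds was not checked there. Alternatives were DESeq2 1.42.0, other scaling, no filter, a length offset, the compared groups alone and each library left out.

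The upstream sequence of Angpt2 is not reported here. The 10 genes and all lists were chosen with earlier results of these data known. The text names the 10 genes, the pathway genes called without the block or among the 4 most abundant of their list, and the 3 nearest genes of each member called; as none was called without the block, those called with it were used, a choice made after the values were seen.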

Additional observations from a re-analysis of the deposited data

How the results depend on the processing

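For the number of the 9 tested genes called, which was 0 in each comparison without the block, the scaling by size factors of relative log expression, the transcript length offset and the fit of the compared groups alone gave 0 everywhere. With the replicate block, 1 was called in KO+R vs KO, 2 in WT+R vs WT, 4 in KO+R vs KO+P and 1 in WT+R vs WT+P, and it changed no other such count. DESeq2 called 1 in KO+P vs KO, 2 in WT+R vs WT, 3 in KO+R vs KO+P and 1 in WT+R vs WT+P. Without the filter on low counts 2 were called in WT+R vs WT and 1 in KO+R vs KO+P, with 0.966% and 2.44% of all genes. DESeq2 with the block, chosen after seeing the data, called 2 in KO+P vs KO, 1 in KO+R vs KO, 2 in WT+R vs WT, 4 in KO+R vs KO+P and 4 in WT+R vs WT+P, with 6.77%, 7.63%, 6.66%, 11.8% and 8.45% of all genes; the cause of these differences was not tested. Leaving out each library gave 0 to 1 called genes in KO+P vs KO (Vegfa, without KO+P replicate 3), in KO+R vs KO+P (Vegfa, without the same library), and in WT+R vs WT and WT+R vs WT+P (Nrp2, without WT+R replicate 2), and 0 in the others. With the block together with leaving out a library, also chosen after seeing the data, the counts were 0 to 3 in KO+P vs KO and in WT+P vs WT, 1 in KO+R vs KO, 1 to 2 in WT+R vs WT, 1 to 5 in KO+R vs KO+P and 1 to 6 in WT+R vs WT+P; the highest of these were reached without KO+P replicate 3 or WT+P replicate 2, and in WT+R vs WT without WT+R replicate 2. In the fits with the highest counts, 10.7% (KO+P vs KO), 8.62% (WT+P vs WT), 14.3% (KO+R vs KO+P), 11.5% (WT+R vs WT+P) and 2.63% (WT+R vs WT) of all genes were called. In the same comparisons without the block, 7.92% (KO+R vs KO+P), 2.24% (KO+P vs KO), 0.33% (WT+R vs WT) and 0.304% (WT+R vs WT+P) were called where 1 of the 9 was. Of 20 calls of pathway genes without the block, 17 had an adjusted p above 0.05 in at least 1 fit without a library, and 9 with the block. Depth limits Aplnr, with at most 6 counts per library, and other genes with few counts such as Egr3, with 3 to 274. Groups of 2 WT+P and 2 WT+R libraries limit the WT drug comparisons. Where a library is left out of these, the lone one is assumed to vary like the other groups.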
